A study of Mus musculus with 4 samples.

Results

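The comparison set CD4+ T cells with much surface CD25 against CD4+ T cells with little of it, both carrying Foxp3. It rests on 2 of the study's 4 arrays, CD25hi Foxp3+ and CD25lo Foxp3+, and on the 9625 genes measured there out of 18194 with a probe set. Both samples were chosen by their titles, and neither by a measured value. The other arrays, of CD25+ Foxp3- and CD25- Foxp3- CD4+ cells, are used as a background. All 4 populations came from the pooled spleens and lymph nodes of 25 male Foxp3-GFP knock-in mice on a B6/129 F2 background, 5 to 8 weeks old. In these mice green fluorescent protein (GFP) stands in for Foxp3, so Foxp3+ and Foxp3- refer to GFP. Per the labels, cells bearing NK1.1, DX5, CD11b, B220 or CD8 had been removed before the sort, and the RNA went through 2 rounds of amplification. No treatment is named in the labels. Because the mice were pooled and each population was read on 1 array, there is no spread between animals or arrays to compare with, no test was possible, and every value below is a size in these arrays only.

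CD25 is the alpha chain of the high-affinity receptor for interleukin 2 (IL-2). It joins the beta chain, encoded by Il2rb, and the common gamma chain, which signal through the kinases Jak1 and Jak3 to the transcription factor STAT5. Foxp3 sets the identity of regulatory T (Treg) cells and sustains CD25, and Treg cells depend on IL-2 made by other T cells. Treg cells in lymphoid organs range from resting cells that recirculate through lymph nodes by CCR7 to activated, effector cells that carry Blimp-1 (Prdm1), KLRG1 and receptors for inflamed tissue.

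The promoters of 3 genes from the groups described below are shown because they hold short letter patterns tied to those pathways, 2 for STAT factors and 1 for AP-1, a factor of T cell activation. They come from RefSeq on assembly GRCm38.p6, and capitals mark the matches. Lta, which encodes lymphotoxin alpha and read 5.12-fold higher in CD25hi cells, has the STAT letters TTCNNNGAA beginning 152 and 16 bases before its start, within chr17:35205352-35205601 on the minus strand. Cish, a STAT5-induced inhibitor of cytokine signalling that read 2.72-fold higher in CD25hi cells, has 2 copies beginning at bases 1 and 12 counted from its start, within chr9:107296654-107296683 on the plus strand. Prdm1, which encodes Blimp-1 and read 2.24-fold higher in CD25lo cells, has the AP-1 letters TGANTCA beginning 48 bases before its start, within chr10:44458749-44458898 on the minus strand.
Lta: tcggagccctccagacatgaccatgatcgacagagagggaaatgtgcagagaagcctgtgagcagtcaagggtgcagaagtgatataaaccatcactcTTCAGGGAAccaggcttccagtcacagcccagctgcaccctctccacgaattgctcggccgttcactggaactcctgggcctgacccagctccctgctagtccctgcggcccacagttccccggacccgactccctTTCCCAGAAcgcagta
Cish: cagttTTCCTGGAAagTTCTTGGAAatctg
Prdm1: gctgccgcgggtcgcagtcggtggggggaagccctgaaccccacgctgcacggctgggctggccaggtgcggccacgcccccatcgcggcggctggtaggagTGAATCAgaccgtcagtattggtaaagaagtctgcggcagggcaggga
Both patterns read the same on either strand, so 1 search covered both, and they do not overlap each other in these windows. Over windows from 250 bases before to 50 after a start, the STAT letters stood in 8.3% of all 32851 promoters of the table and in 8.05% of 323 promoters of genes at least 2-fold higher in CD25hi cells. They stood in 5.98% of 251 promoters of genes at least 2-fold lower. The AP-1 letters stood in 7.81% of all promoters, in 6.81% of the first set and in 7.17% of the second. Over promoters of measured genes alone the shares were 6.81% for the STAT and 4.78% for the AP-1 letters. In 19 promoters of the IL-2 receptor and STAT5 list, 2 held the STAT letters and none the AP-1 letters. A match is a description of the letters and not of a bound site.

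**Figure D1:**
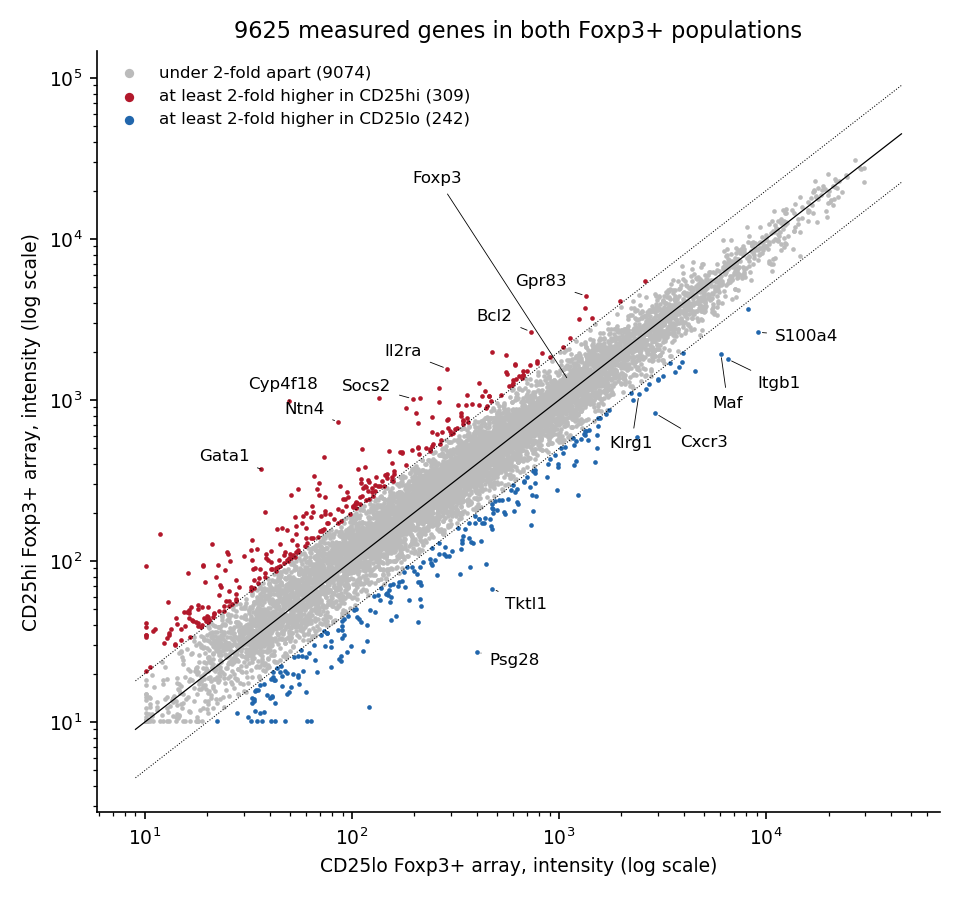
Intensity of 9625 measured genes on the CD25hi Foxp3+ array (vertical axis, log scale) against the CD25lo Foxp3+ array (horizontal axis, log scale), 1 point a gene, with the line of equal intensity solid and the 2-fold lines dotted. Red points are the 309 genes at least 2-fold higher in CD25hi cells and blue points the 242 at least 2-fold higher in CD25lo cells, and most points, Foxp3 among them, lie between the dotted lines.

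The cells matched their labels for lineage. Foxp3 read 1308 in CD25hi and 1117 in CD25lo cells, against 16.8 among CD25+ Foxp3- and 17.6 among CD25- Foxp3- cells, so the Foxp3+ pair differed by 1.17-fold in the gene they were sorted on together. Il2ra, which encodes CD25, read 1562 in CD25hi and 288 in CD25lo cells, a gap of 5.42-fold in the direction of the sort, and its second probe set read 417 and 84.2. Among other defining genes of the lineage, Cd3d read 9007 and 9946, Cd4 2455 and 2740 and Ctla4 10132 and 12173 in CD25hi and CD25lo cells. Ikzf2, which encodes Helios, read 4891 and 7034 in the same order, against 1917 among CD25+ Foxp3- and 424 among CD25- Foxp3- cells. Both Foxp3+ populations therefore carried the Treg genes, and they differed in Il2ra far more than in Foxp3.

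Of the 9625 genes, 551 (5.72%) lay at least 2-fold apart, 309 (3.21%) higher in CD25hi cells and 242 (2.51%) higher in CD25lo cells. At 4-fold or more there were 31 and 17 genes, 0.499% together. The median difference over all genes was 0.05 on the log2 scale, CD25hi minus CD25lo, and the 5th and 95th percentiles were -0.74 and 0.84. A 2-fold difference was more frequent where the lower of the 2 Foxp3+ readings was dim. It was met by 18.99% of 811 genes with either Foxp3+ reading under the filter intensity of 32.5, by 4.34% of 5050 genes whose lower reading was 100 to 1000, and by 1.26% of 1978 genes whose lower reading was 1000 or above. Of those bright genes, 8 were higher in CD25hi and 17 higher in CD25lo cells. Part of this fall is built in, since a wide gap itself makes the lower reading dimmer. A gene with a reading under the filter was also kept only if another array passed it. A second probe set of the same gene, where measured, went the same way for 101 of 106 genes higher in CD25hi cells and for 73 of 78 higher in CD25lo cells. It shares the array and the RNA, so it is no replicate of the cells. From such pairs, the difference of 1 probe set had an SD of 0.31 on the log2 scale.

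Genes of the IL-2 receptor and of the STAT5 response read higher in CD25hi cells. Of 18 measured members of that list, 7 were at least 2-fold higher and none at least 2-fold lower, against 3.21% and 2.51% of all genes, and the median difference was 0.41 against 0.05. In this list and all others, Il2ra and Foxp3 were not counted. In whole populations, here and below, fewer cells of a kind and less RNA in each cell cannot be told apart. Socs2, a feedback inhibitor induced by STAT5, read 1017 in CD25hi, 197 in CD25lo, 382 among CD25+ Foxp3- and 70.2 among CD25- Foxp3- cells, and was 5.17-fold higher in CD25hi than CD25lo cells. Its second probe set read 598 and 120. Cish, whose STAT letters are printed above, read 1656, 609.8, 672 and 313 in the same order of populations. Il2rb read 1053, 459, 257 and 68.5, so both measured chains of the receptor were highest in CD25hi Foxp3+ cells. Socs1, a further inhibitor of JAK kinases, read 41.1 in CD25hi cells and at the floor of 10.1 in CD25lo cells, where values under the floor have no order, and was at least 4.06-fold higher. It read 13.7 and 12.8 in the CD25+ and CD25- Foxp3- cells. Socs1 thus passed the filter of 32.5 by its CD25hi reading alone, so its place among the 7 carries no weight. With a floor at the 60th percentile its log2 difference was 0.34.

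The remaining members of that list at 2-fold act in growth, survival or signalling between cells. Bcl2, which holds off mitochondrial cell death, read 2653 in CD25hi and 732 in CD25lo cells, a 3.63-fold difference, against 1918 and 2187 in the CD25+ and CD25- Foxp3- cells. All of its probe sets gave log2 differences between 1.41 and 2.08. Here CD25lo Foxp3+ cells were the low population and the other 3 lay within a narrow range. Myc, a driver of cell growth, was also lowest in CD25lo Foxp3+ cells, at 828 in CD25hi, 204 in CD25lo, 802 among CD25+ Foxp3- and 466 among CD25- Foxp3- cells. Osm, the cytokine oncostatin M, read 171 and 76.5 in the Foxp3+ pair. Among members short of 2-fold, Jak1 read 4266 and 5402, and Mcl1, another survival gene, 9535 and 8626, while the kinase genes Pim1 and Pim2, named after their values were seen, had log2 differences of -0.03 and -0.06. The list was therefore not uniformly higher, with 13 members above 0 and 5 below.

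**Figure D2:**
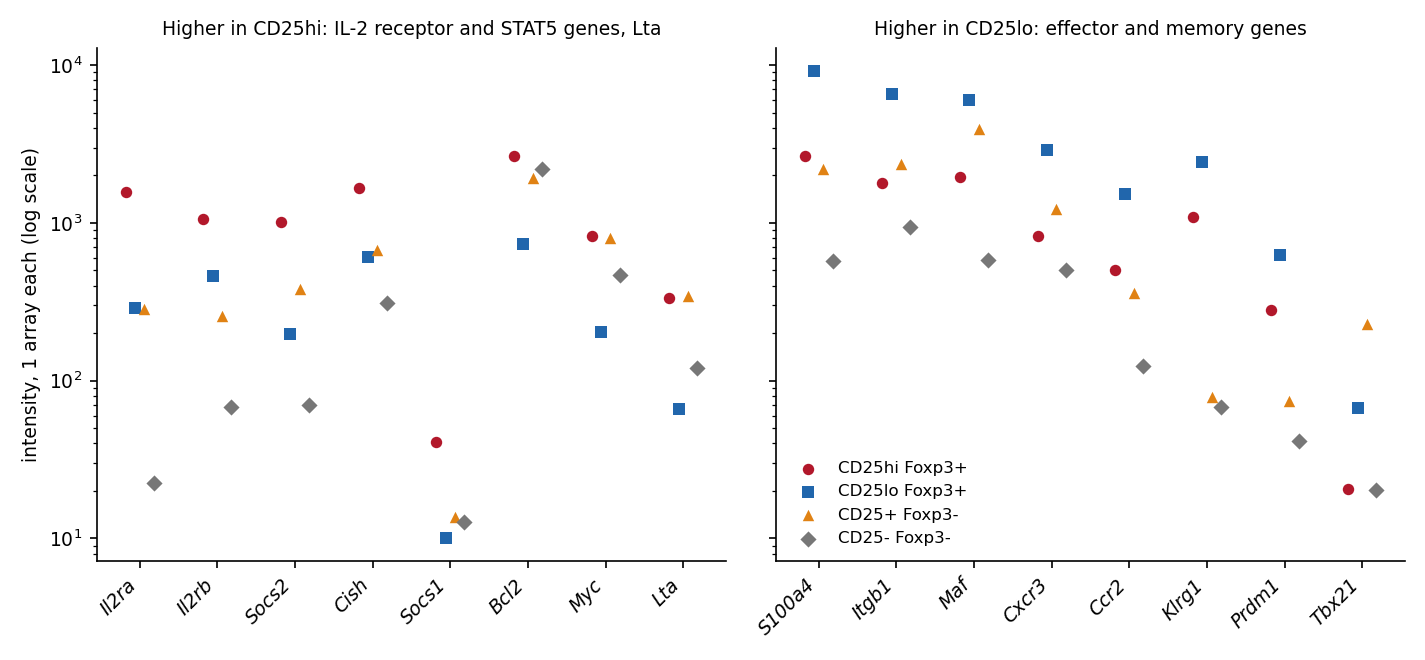
Intensity (log scale, 1 array for each point, no error bars because no group has replicates) of 16 genes in the 4 sorted populations, with genes higher in CD25hi cells on the left and genes higher in CD25lo cells on the right. On the left CD25lo cells lie below CD25hi cells for each gene, by at least 4.06-fold for Socs1 and 5.17-fold for Socs2, and on the right above them, by 3.48-fold for S100a4.

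Treg signature genes were divided between the populations. Of 29 measured members 5 were at least 2-fold higher in CD25hi and 2 in CD25lo cells, with a median difference of -0.04, and 14 lay above and 15 below 0. Of these 29 genes, 19 stand on another list as well. Gpr83, an orphan receptor typical of Treg cells, read 4426 in CD25hi, 1349.6 in CD25lo, 315 among CD25+ Foxp3- and 323 among CD25- Foxp3- cells, 3.28-fold apart in the Foxp3+ pair. Its second probe set read 4786 and 1183. Ecm1, a secreted matrix protein, read 974, 263, 203 and 229, so CD25lo Foxp3+ cells lay near the Foxp3- cells. Plagl1, a zinc finger transcription factor, read 1890.1 and 553 in CD25hi and CD25lo cells, but its second, dim probe set read 40.9 and 47.2, and the 2 probe sets went opposite ways. On the CD25lo side were Fgl2, a secreted suppressor protein, at 335 in CD25hi and 878 in CD25lo cells, and Itgb8, the integrin chain that frees active TGF-beta, at 240.3 and 528. Icos, a costimulatory receptor, read 7042 and 10804 and stayed short of 2-fold, but its second probe set, at 2350 and 4892, passed 2-fold.

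Genes for making ribosomes read higher in CD25hi cells. The 3 lists of biosynthesis were put together after the values had been seen, so their counts describe the data and support nothing. Of 51 measured genes of ribosome biogenesis and the nucleolus, 14 were at least 2-fold higher in CD25hi cells, none lower, and all 51 lay above 0, with a median of 0.79. Over all measured genes 55.4% lay above 0. Urb1, an assembly factor of the large subunit, read 171 in CD25hi, 57.6 in CD25lo, 232 among CD25+ Foxp3- and 275 among CD25- Foxp3- cells. Nop56, a core protein of the particles that methylate ribosomal RNA, read 3194, 1243, 3802 and 3210.5 in that order. Naf1, which helps assemble the particles that make pseudouridine, read 476, 174, 793 and 243. The abundant nucleolar proteins differed less, with Ncl at 12352 and 10320.2 and Npm1 at 12517 and 11826 in the Foxp3+ pair. For Urb1 and Nop56 the low population was again CD25lo Foxp3+. The array's probe sets for 18S ribosomal RNA, a check on RNA handling, also read higher in CD25hi than CD25lo cells, at 637.6 against 215.8 for the 5' one and 512.6 against 304.5 for the 3' one. In CD25+ Foxp3- and CD25- Foxp3- cells these read 442.9 and 293.6, and 373.2 and 388.9. Their part in the result was not tested.

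The other biosynthetic lists went the same way. Of 30 measured genes of one-carbon, nucleotide and polyamine synthesis, 10 were at least 2-fold higher in CD25hi cells and 1, Azin1, at least 2-fold lower, with a median of 0.62. Shmt1, which moves one-carbon units from serine onto folate in the cytosol, read 257 in CD25hi, 50.8 in CD25lo, 665 among CD25+ Foxp3- and 63.6 among CD25- Foxp3- cells. Its mitochondrial counterpart Shmt2 read 925, 353, 1545 and 933. Srm, the enzyme that makes spermidine, read 893, 182, 1808 and 781, and was 4.91-fold higher in CD25hi than CD25lo cells. Mthfd1, a folate enzyme, read 1077 and 358 in the Foxp3+ pair, and Cad, which starts pyrimidine synthesis, 308 and 121. Azin1, an inhibitor of the protein that degrades ornithine decarboxylase, read 1347 and 2996. Of 34 measured genes of mitochondrial import and mitochondrial ribosomes, 10 were at least 2-fold higher in CD25hi cells and none lower, with a median of 0.56. Atad3a, a mitochondrial inner membrane ATPase, read 1665 and 611, Mrpl12, of the mitochondrial ribosome, 796 and 337, and C1qbp, a matrix protein, 5486 and 2599. The chaperonin Hspd1 at 5539 and 3541 and the import receptor Tomm20 at 6557 and 7186 stayed short of 2-fold.

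**Figure D3:**
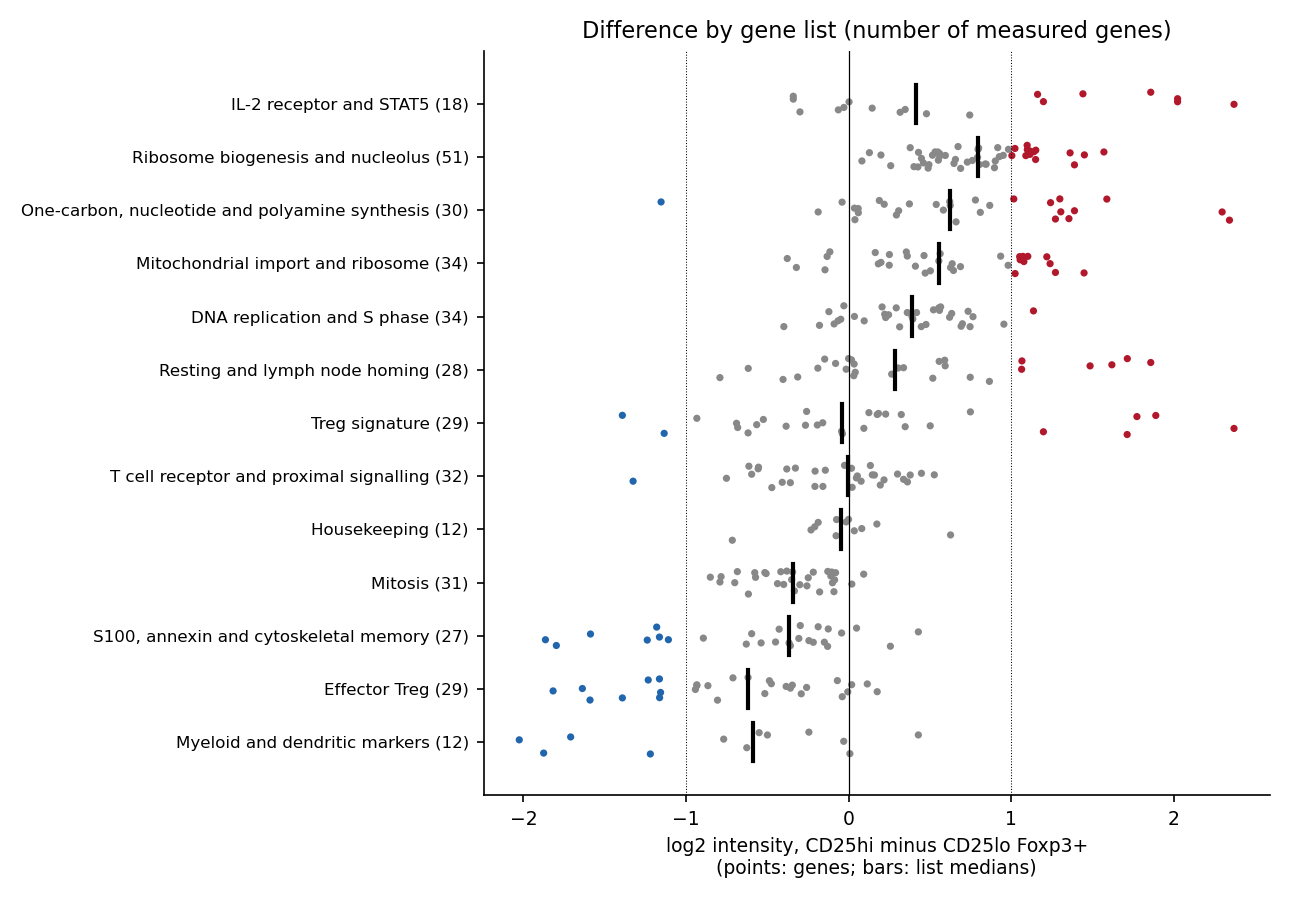
Log2 difference, CD25hi minus CD25lo Foxp3+ cells (horizontal axis), of every measured gene of 13 lists (rows, number of genes in parentheses), with each list's median as a black bar and the 2-fold limits dotted. The ribosome biogenesis list has its median at 0.79 and all points right of 0, whereas the effector Treg list has its median at -0.62 and 26 of 29 points left of 0.

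Cell cycle genes split by phase, with differences mostly short of 2-fold. Of 34 measured genes of DNA replication and S phase, 27 lay above 0 and the median was 0.39, yet only Gins1, a subunit of the replicative helicase complex, reached 2-fold, at 155 in CD25hi and 70.3 in CD25lo cells. Mcm7, a subunit of the helicase itself, read 6469.6 and 4390.1, and Pcna, the sliding clamp, 7299 and 8262. Of 31 measured genes of mitosis, 29 lay below 0, none reached 2-fold either way, and the median was -0.34. Mki67, which encodes the proliferation marker Ki-67, read 2923 in CD25hi, 4178 in CD25lo, 3698 among CD25+ Foxp3- and 818 among CD25- Foxp3- cells. Stmn1, a regulator of microtubules, went the other way by a small margin, at 4028 and 3778. Between the CD25+ and CD25- Foxp3- cells both lists had high medians, at 1.93 for replication and 1.78 for mitosis, so there both phases read higher in the CD25+ cells; the difference between the contrasts was not tested.

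Some genes of resting, lymph node homing T cells read higher in CD25hi cells. Of 28 measured members, 6 were at least 2-fold higher there and none at least 2-fold lower, while 19 lay above 0 and 8 below, and the median was 0.29. Ccr7, the receptor that draws T cells into lymph nodes, read 3715 in CD25hi, 1327 in CD25lo, 3329 among CD25+ Foxp3- and 4937 among CD25- Foxp3- cells. Bach2, a repressor that restrains effector differentiation, read 1241, 593, 1464 and 1601, and its second probe set read 782 and 198 in the Foxp3+ pair. For both genes CD25hi cells lay nearer to the Foxp3- cells than CD25lo cells did. Igfbp4, a binding protein of insulin-like growth factors found in naive T cells, read 1266, 412, 1996 and 13217, so CD25hi cells remained far below CD25- Foxp3- cells. The neuronal-type vesicle protein gene Nsg2 read 4126 and 1974 in the Foxp3+ pair, and Tdrp 191 and 58.1. Ms4a6b, at 12493 and 12625, and Il7r, the receptor of interleukin 7, at 3565 and 3465, were almost level. Il6ra, which encodes the interleukin 6 receptor and was named after its values were seen, had the lowest difference of the list, at 454 and 785.

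Most effector Treg genes read higher in CD25lo cells, by varying amounts. Of 29 measured members, 8 were at least 2-fold higher in CD25lo cells and none in CD25hi cells, 26 lay below 0, and the median was -0.62. Of these genes 27 also stand on other lists. Prdm1, whose AP-1 letters are printed above, read 280.2 in CD25hi, 627 in CD25lo, 74.7 among CD25+ Foxp3- and 41.2 among CD25- Foxp3- cells. Klrg1, an inhibitory receptor of terminally differentiated cells, read 1085, 2429, 79.1 and 68.4. Maf, a transcription factor tied to interleukin 10, read 1942, 6039.9, 3904 and 585, and its second probe set read 713 and 2103 in the Foxp3+ pair. All 3 were highest in CD25lo Foxp3+ cells, and for Klrg1 and Prdm1 the Foxp3- cells lay well below both Foxp3+ populations. Pdcd1, the checkpoint receptor PD-1, read 242 and 569, and Rora, a nuclear receptor of tissue Treg cells, 574 and 1278 in CD25hi and CD25lo cells. Il10 itself, named after its values were seen, read 207 and 395 and stayed short of 2-fold. Members that were nearly level included Ccr6 at 1862 and 1913.

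The S100, annexin and cytoskeletal genes of memory T cells went with them. Of 27 measured members 7 were at least 2-fold higher in CD25lo cells, none in CD25hi cells, and 24 lay below 0, with a median of -0.37. S100a4, a calcium-binding protein of motile cells, read 2634 in CD25hi, 9154 in CD25lo, 2205 among CD25+ Foxp3- and 572 among CD25- Foxp3- cells, a 3.48-fold difference at high intensity. S100a6, of the same family, read 1503, 4516, 614 and 326. Itgb1, the beta-1 integrin chain, read 1793, 6527, 2345 and 939.8, and its second probe set gave 559 and 3025 in the Foxp3+ pair. These were highest in CD25lo Foxp3+ cells among all 4 populations. Ahnak, a large scaffold protein, read 1611 and 3800.3, and Emp1, a membrane protein, 269 and 610.0. Lgals1, the lectin galectin-1, stayed short of 2-fold at 8712 and 13474. S100a10 did so at 7866 and 14607, but its second probe set, at 4150 and 9593, passed 2-fold. The AP-1 letters stood in 12 of 60 promoters of these effector and memory lists, against 7.81% of the whole table and 4.78% of measured genes, and the STAT letters in 5 of them. Some of those windows are alternative starts of 1 gene that overlap.

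A few chemokine receptors, and not the list throughout, read higher in CD25lo cells. Of 15 measured receptors of chemokines and tissue exit, 14 lay below 0, some of them by very little, 3 were at least 2-fold higher in CD25lo cells and Ccr7 alone was at least 2-fold higher in CD25hi cells. Cxcr3, which leads cells to inflamed tissue, read 826 in CD25hi, 2911 in CD25lo, 1221 among CD25+ Foxp3- and 502 among CD25- Foxp3- cells. Ccr2, a receptor better known on monocytes, read 505, 1519, 360.2 and 124, and its second probe set differed by -1.74 on the log2 scale, CD25hi minus CD25lo. Cxcr5, the receptor that leads cells into B cell follicles, read 402, 992, 335 and 286. Among lineage transcription factors 5 of 29 were at least 2-fold higher in CD25lo cells and none in CD25hi cells, with a median of -0.17. Besides Maf, Prdm1 and Rora these were Bcl6, the factor of follicular T cells, at 183 and 465, and Tbx21, which encodes T-bet of type 1 helper cells, at 20.5 and 67.6, the first reading under the filter intensity. Sh2d1a, the adaptor SAP that T cells need to help B cells, read 606 and 1518 and Tox2, another follicular T cell factor, 168 and 735.

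Cytokine genes differed in both directions. Of 20 measured, 2 were at least 2-fold higher in CD25hi cells and 4 in CD25lo cells, and the median was -0.10. Lta read 336 in CD25hi, 65.7 in CD25lo, 341 among CD25+ Foxp3- and 120.4 among CD25- Foxp3- cells, so CD25lo Foxp3+ cells were the lowest. Ifng, the type 1 cytokine interferon gamma, read 139.6, 366, 1146 and 288. Il21, a follicular T cell cytokine, read 15.3 in CD25hi and 59.8 in CD25lo cells, both far under the 1794 of CD25+ Foxp3- cells. Ccl5 read 204 and 747 and Ccl3 15.3 and 49.5 in the Foxp3+ pair, and both are chemokines that natural killer and myeloid cells also make. Of 26 cytokine receptors 2 were at least 2-fold higher in CD25hi cells, Il2rb and Ifngr2, the second chain of the interferon gamma receptor, at 203 and 65.0. Il18rap, of the interleukin 18 receptor, read 40.2 and 119. Of 31 genes of the TNF receptor family and checkpoints, 3 were at least 2-fold higher in CD25hi cells, namely Tnfsf8 (CD30 ligand) at 187 and 63.3, Tnfrsf14 (HVEM) at 159.8 and 60.2 and Tnfrsf25 (DR3) at 1080.4 and 523. With Pdcd1, Tnfsf11, which encodes RANK ligand, made up the other side, at 525 and 1184.

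Other lists held few members at 2-fold or none. No member reached 2-fold among 27 interferon-stimulated genes, 17 genes of cholesterol synthesis and 12 housekeeping genes, whose medians were -0.02, 0.08 and -0.04. Hmgcs1, of cholesterol synthesis, was level at 1906 and 2004 on the probe set used, but its next probe set read 301 and 706. Of 32 genes of the T cell receptor and its proximal signals only Sh2d1a reached 2-fold, and the median was 0.00. Among 36 immediate early genes, which T cell receptor signals induce within minutes to hours, Myc stood alone at 2-fold in CD25hi cells and Egr3, at 296 and 602, alone in CD25lo cells. Fos read 9863 and 11346. Of 16 glycolysis genes Hk2, which encodes hexokinase 2, read 108 and 46.8 and no other reached 2-fold. Among 21 BCL-2 family and death genes Bcl2 was the one at 2-fold in CD25hi cells. Pmaip1, which encodes the killer protein NOXA, read 129 and 341, and the inflammatory caspases Casp1 and Casp4 read 255 and 741, and 75.4 and 173. Of 21 integrins and adhesion molecules 3 were at least 2-fold higher in CD25lo cells, Itgb1, Itgb8 and Alcam, and Itgb7 read 9104 and 9705. Alcam barely reached 2-fold, at 121 and 243, and its other probe sets stayed short of it, the next brightest at 136 and 150. Of 14 granzyme and granule genes 1 was at least 2-fold higher in CD25hi cells, Ctsw, a cathepsin of cytotoxic cells, at 1022 and 213. On the other side were 2, Gzmk, at least 5.99-fold higher in CD25lo cells at 60.6, and Serpinb1a, a protease inhibitor, at 20.2 and 48.5. Among 10 receptors of the natural killer type, Klrg1, Cd244a and Klrb1f were at least 2-fold higher in CD25lo cells. Cd244a was at the floor in CD25hi cells. Klrb1f was dim, at 13.5 and 33.8, and its second probe set, at 11.7 and 16.1, stayed short of 2-fold. With a floor at the 60th percentile the log2 difference of Klrb1f was -0.058. The heat shock genes Hspa1a, at 173 and 433, and Hspa1b, at 997 and 2281, are near-identical copies, and how their signal divides is uncertain.

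Most markers of other cell types were dim in both Foxp3+ populations, and several myeloid ones read higher in CD25lo cells. Of 20 myeloid and dendritic markers with a probe set, 12 were measured, and 4 of these were at least 2-fold higher in CD25lo cells and none in CD25hi cells, with a median of -0.59 over those measured and -0.24 over all 20. Their summed intensity was 1355.9 in CD25hi and 1783.5 in CD25lo cells, against 1938.2 and 2294 in CD25+ and CD25- Foxp3- cells. Lyz2, the lysozyme of macrophages, read 27.8 and 113, and its near-identical copy Lyz1, whose signal cannot be separated from it, 52.2 and 215. Csf1r read 57.8 and 212, Mpeg1 57.4 and 187 and Tyrobp 14.1 and 32.8. The other probe sets of Csf1r, at 35.8 and 53.5 and at 28.2 and 36.7, stayed short of 2-fold. With a floor at the 60th percentile the log2 difference of Tyrobp was -0.014. Itgam, the CD11b used for depletion, and Itgax, Cd14 and Siglech were at the floor in both Foxp3+ populations. Cst3, the brightest of the list, was level at 944 and 939. Of 9 measured genes of MHC class II and its loading, 3 were at least 2-fold higher in CD25lo cells and none in CD25hi cells. These were H2-Aa at 132 and 375, H2-Ab1 at 48.3 and 129 and H2-Eb1 at 98.5 and 219.6. They read 1877, 548 and 854 in CD25+ Foxp3- cells and 1098, 352 and 490 in CD25- Foxp3- cells. Of the 9 genes, 4 lay above 0 and 5 below, with a median of -0.31, or -0.006 over all with a probe set. The bright Cd74 was short of 2-fold, at 894 and 1106. Of 14 B cell markers with a probe set, 6 were at the floor in each Foxp3+ population, Cd79a and Pax5 among them. Of the 8 measured, Pou2af1 and Cd22 were at least 2-fold higher in CD25lo cells, and the list summed to 9224.5 and 10387.1, nearly all of it Ighm at 8884 and 9906. Markers of CD8 T and natural killer cells summed to 975.9 and 1561.2, and Ccl5, at 204 and 747, made up most of that gap. Of 13 measured, 2 were at least 2-fold higher in CD25lo cells, Ccl5 and Gzmk. The median was 0.00, with 5 members above 0 and 6 below, and Cd8a read 101 and 83.7 and Cd8b1 145 and 90.8. Red cell and platelet markers summed to 242.8 and 526.2, and the 2 that differed, Car1 and Car2, are carbonic anhydrases. Plasma cell, gamma delta T and natural killer T, and innate lymphoid and mast cell markers, of which 4, 3 and 5 were measured, held no member at 2-fold and had medians of 0.03, -0.08 and 0.04. The part of these cells in the genes higher in CD25lo cells was not tested.

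The genes with the widest gaps were mostly outside the lists. Cyp4f18, an enzyme that oxidises fatty acid derivatives, read 979.7 in CD25hi, 49.9 in CD25lo, 26.1 among CD25+ Foxp3- and 15.1 among CD25- Foxp3- cells, 19.6-fold apart in the Foxp3+ pair. Drc1, a ciliary protein, read 147 and 11.8, a size that is uncertain because the second reading is near the floor. Gata1, a transcription factor of red cell and mast cell precursors, read 372, 36.4, 55.0 and 65.3. Of the 4 measured red cell markers, Klf1, at 14 and 13.6, and Alas2, at 17.1 and 18.3, were under the filter intensity in both Foxp3+ populations, and Car1 and Car2 were higher in CD25lo cells. Ntn4, a secreted netrin, read 730.1, 86.0, 141 and 38.4. Treml2, a receptor of the TREM family, read 1027, 136, 281 and 1066, and its second probe set 561 and 75.7 in the Foxp3+ pair. These genes had their highest readings in CD25hi Foxp3+ cells, except Treml2, which was as high in CD25- Foxp3- cells. Smyd2, a protein methyltransferase, read 442 and 72.8, Gsta4, a glutathione transferase, 1184 and 262, and Eno3, a muscle-type enolase, 1973 and 475. Cdk12, a kinase of transcription, read 306 and 69.6, but of its other 5 probe sets only a dim one, at 71.5 and 34.7, also reached 2-fold, and the next brightest read 194 and 167. The other genes among the 25 with the widest gap were Ampd1, Arhgap20, Sorcs2, Cnn3, Car11, Lad1, Gpld1, Ppm1l, Kcnh2, Fntb and Pla2g4f, between 4.19-fold and 6.11-fold. All of them but Arhgap20, Cnn3 and Ppm1l read under the filter intensity in CD25lo cells, so their folds are uncertain. Gpld1 and Kcnh2, like Drc1, passed the filter by their CD25hi reading alone, so only a higher reading there could bring them in. Against a floor reading in CD25lo cells, Prkar1b was at least 9.21-fold, Hepacam2 at least 3.84-fold, Wdcp at least 3.44-fold, Tcf7l1 at least 3.41-fold, Ptger3 at least 3.35-fold and Fnbp1l at least 2.04-fold higher in CD25hi cells. All of these but Fnbp1l passed the filter by their CD25hi reading alone, so only a higher reading there could bring them in. With no filter Tcf7l1 differed by 0.35 on the log2 scale, short of 2-fold.

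In the other direction, Psg28, of a family of near-identical pregnancy glycoproteins and so uncertain as to the gene, read 27.1 in CD25hi and 401 in CD25lo cells, 14.8-fold apart. Tktl1, a transketolase relative, read 67.4, 476, 86.2 and 34.8 over the 4 populations, and its second probe set 24.8 and 164 in the Foxp3+ pair. Myo1f, an unconventional myosin of leukocytes, read 257, 1239, 278 and 125. For both, CD25lo Foxp3+ cells stood above the other 3 populations. Vcam1, an adhesion molecule of endothelium and stroma, read 41.6 and 208, against 187 and 229 in the CD25+ and CD25- Foxp3- cells. Its second, dim probe set read 30.4 and 47.9 in the Foxp3+ pair and stayed short of 2-fold. Cybb, the core of the phagocyte oxidase, read 413 and 1484. Sccpdh, Atp6v0d2, Evi2a, Nebl, Rap1gap2, Esm1, Matn2, Eea1 and Hip1 were between 3.51-fold and 4.60-fold higher in CD25lo cells. Of these, Nebl, Rap1gap2, Esm1 and Hip1 read under the filter intensity in CD25hi cells, so their folds are uncertain. Rap1gap2 and Hip1 passed the filter by their CD25lo reading alone, so only a higher reading there could bring them in. Against a floor reading in CD25hi cells, Cd244a was at least 6.23-fold, Pak3 at least 4.71-fold, Nectin3 at least 4.18-fold, Gna14 at least 4.03-fold, Tppp at least 3.63-fold, Elavl2 at least 3.44-fold, Speer4a at least 3.21-fold and Ccl9 at least 2.21-fold higher in CD25lo cells. Speer4a belongs to a family of near-identical copies. All of these but Cd244a and Ccl9 passed the filter by their CD25lo reading alone.

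**Figure D4:**
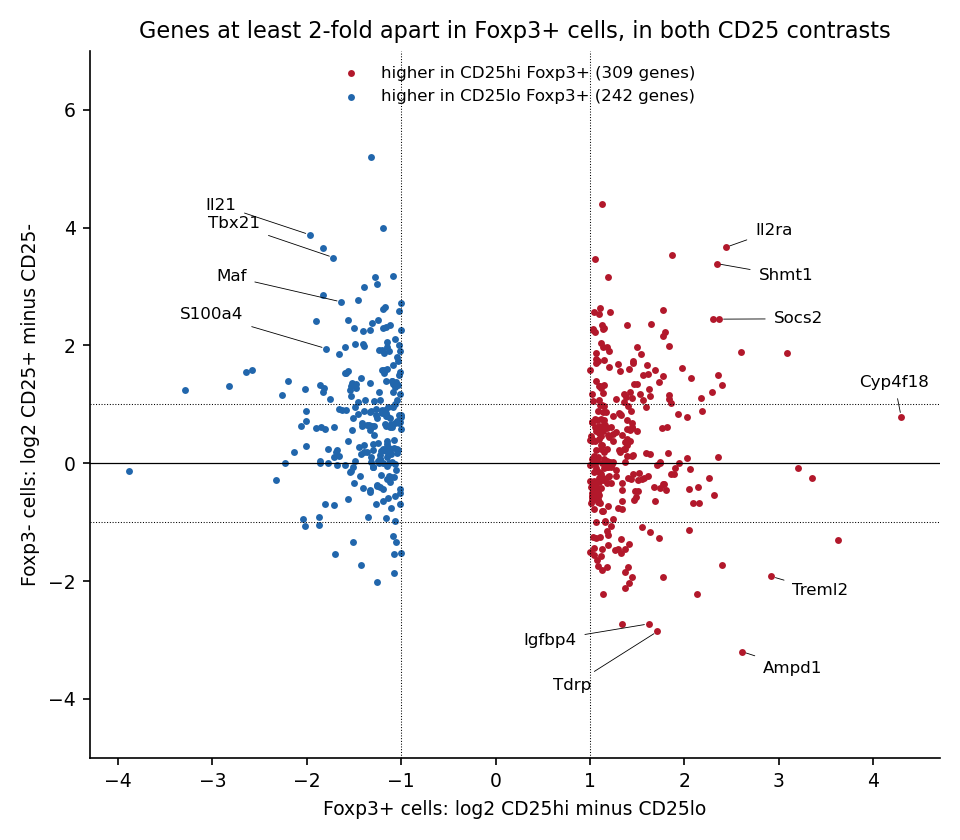
Log2 difference between CD25+ and CD25- Foxp3- cells (vertical axis) against that between CD25hi and CD25lo Foxp3+ cells (horizontal axis) for the 551 genes at least 2-fold apart in the Foxp3+ pair, with 2-fold limits dotted. The genes higher in CD25lo Foxp3+ cells, in blue, have a median of 0.68 on the vertical axis and those higher in CD25hi, in red, 0.13.

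The study holds a second contrast of CD25, CD25+ against CD25- among Foxp3- cells, which shares no array with the first. Over the 9625 genes, 12.1% read at least 2-fold higher in CD25+ and 6.43% in CD25- Foxp3- cells, with a median of -0.01. Of the 309 genes higher in CD25hi Foxp3+ cells, 80 (25.9%) were at least 2-fold higher in CD25+ and 43 (13.9%) at least 2-fold lower, with a median of 0.13. Socs2, at 382 and 70.2, and Shmt1, at 665 and 63.6, were among the first, and Igfbp4, at 1996 and 13217, and Ampd1, at 22.4 and 206, among the second. Of the 242 genes higher in CD25lo Foxp3+ cells, 88 (36.4%) were at least 2-fold higher in CD25+ Foxp3- cells and 11 (4.5%) lower, with a median of 0.68. Both sets of genes thus held more members above 2-fold in CD25+ Foxp3- cells than all genes did, and the set that was higher at low CD25 among Foxp3+ cells held the larger share. The set higher in CD25hi cells also held more members at least 2-fold lower in CD25+ Foxp3- cells, 13.9% against 6.43%, so its excess lay in both directions. The set higher in CD25lo cells held fewer of these, 4.5%. Genes 2-fold apart in the Foxp3+ pair were more often dim, as given above, and no share matched for intensity was taken. The part of dim readings in these excesses was not tested. By lists, the effector Treg genes had medians of -0.62 in the Foxp3+ and 1.47 in the Foxp3- contrast, and the resting genes 0.29 and -0.87. The IL-2 receptor and STAT5 list, at 0.41 in the Foxp3+ contrast, stood at -0.06 in the Foxp3- contrast, where Il2ra differed by 12.7-fold. There 4 of its 18 members were at least 2-fold higher in CD25+ cells, among them Socs2, Il2rb and Cish, and 1 was lower. Ribosome biogenesis genes had positive medians in both, 0.79 and 0.68.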

How the data were processed

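The authors' deposited values are 1 linear intensity per probe set of the Affymetrix Mouse Genome 430 2.0 array, as read from the values. For the probe summary, background correction and normalization, the authors' methods are not given in the sources used here. Array medians were 15.0 to 15.6, so no further scaling was applied, and log2 was taken. The 64 control probe sets were left out. Of the rest, 34958 had 1 gene in the platform annotation, 932 several and 9147 none listed, and the first were used. Readings below the 40th percentile, 10.1, were raised to that floor. Probe sets whose highest reading over the 4 arrays was below the 60th percentile, 32.5, were dropped. A gene was read from its probe set with the highest mean log2 intensity. A fold against the floor is a lower bound, and folds of readings near it are uncertain. The number of arrays limits the precision. With 1 array a group, a 2-fold size rule was used and no test.

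The 31 first gene lists, the 3 added ones and the comparison were chosen with earlier results of these data known. Named are both sort genes, the 25 genes furthest apart each way above the floor, up to 10 each way against a floor reading, and from each list up to 6 members at 2-fold each way and up to 2 bright members short of it. Clone or locus symbols (323 measured genes) were only counted. Names picked outside the rule, with their values known, are Ikzf2, Cd4, Pim1, Pim2, Il6ra and Il10, markers listed at the floor, and those of the closing observations. Counting was tested on simulated data with known folds. Python 3.11.15, numpy 2.4.6 and pandas 2.3.3 were used. Alternatives for the floor, filter, probe set, scaling and fold were run.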

Additional observations from a re-analysis of the deposited data

Results flagged for a closer look

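Genes were picked out where they lay at least 3-fold apart in the Foxp3+ pair one way and at least 3-fold apart between CD25+ and CD25- Foxp3- cells the other way. The difference between the contrasts was not tested, since each population has 1 array. On the log2 scale, Foxp3+ pair first and Foxp3- pair second, Treml2 differed by 2.92 and -1.92, Ampd1 by 2.61 and -3.20, Sorcs2 by 2.39 and -1.73, Cdk12 by 2.13 and -2.23, Tdrp by 1.71 and -2.86 and Igfbp4 by 1.62 and -2.73. Of these, Tdrp and Igfbp4 were lower in both Foxp3+ than in both Foxp3- populations. The opposite arrangement was met by Il21 at -1.97 and 3.88, Nebl at -1.90 and 2.41, Matn2 at -1.83 and 2.86, Eea1 at -1.83 and 3.66, S100a4 at -1.80 and 1.95, Tbx21 at -1.72 and 3.49 and Maf at -1.64 and 2.74. Among all 13, Ampd1, Sorcs2, Il21, Nebl and Tbx21 had a reading under the filter intensity in the Foxp3+ pair, and 4 of the other 5 probe sets of Cdk12 were under 2-fold apart there. The medians of 16 of the 34 lists had opposite signs in the contrasts, many of them small in 1 or both. Of these lists, the medians of the effector Treg genes (-0.62 and 1.47) and of the mitosis genes (-0.34 and 1.78) lay more than 0.31, the SD of 1 probe set, from 0 in both.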

How the results depend on the processing

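No paired analysis was possible because each group has 1 array, and for the same reason no replicate could be left out. The counts moved most with the fold asked for: 1057 genes higher in CD25hi cells and 779 higher in CD25lo cells at 1.5-fold, and 74 and 54 at 3-fold. Over the floors, filters, probe set rules and scalings at 2-fold, the counts ran from 227 to 329 and from 171 to 265, and 51.9% to 58.2% of the genes were higher in CD25hi cells. The medians of short marker lists moved with the low values. The B cell median was -0.079 with a floor at the 60th percentile, -0.079 with no filter, -0.28 with a filter on the Foxp3+ arrays and -0.22 with both of them at the filter. The myeloid median was -0.005, -0.24 and -0.92 under the first 3 of these. The red cell median was -0.02 with no filter, and the NK-type receptor median -0.75 with the filter on the Foxp3+ arrays. The gamma delta T and NKT median was -0.49 with no floor and -0.63 without probe sets ending in _x_at or _s_at. With no filter, 73.2% and 69.9% of second probe sets went the same way for genes higher and lower in CD25hi cells. Plagl1 reversed to -0.20 on the log2 scale without _x_at and _s_at probe sets, since its second probe set was then read. Of 139 named genes at 2-fold, 117 kept it with the floor at the 60th percentile, among the lost Socs1, Gzmk and Il21, and 132 with the mean of probe sets, among the lost Alcam, Cdk12 and Csf1r. With no filter 138 kept it, Tcf7l1 being lost, and with median scaling 138, Alcam being lost. Dim signal limits these sizes.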

Other observations

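Some groups outside the lists also differed in the Foxp3+ pair. They were chosen after their values were seen, and their values are given with no explanation. Of 6 genes tied to the inflammasome, which activates caspase-1, 4 were at least 2-fold higher in CD25lo cells, against 2.51% of all genes. Casp1 read 255 in CD25hi and 741 in CD25lo cells, its substrate Il18 24.1 and 66.1, and the bacterial sensors Naip2 and Naip5 29.3 and 78.7, and 25.4 and 52.4. For Il18, Naip2 and Naip5 the CD25hi reading was under the filter intensity of 32.5, where 2-fold gaps were most frequent. The adaptor Pycard, at 3732 and 5043, and the DNA sensor Aim2, at 84.5 and 82.4, were under 2-fold apart. Subunits of the phagocyte oxidase went different ways, with Cybb at 413 and 1484, Ncf1 at 279 and 67.6, and Cyba at 4134 and 3180. Carbonic anhydrases were also divided, with Car11 at 94.8 and 19.0 and Car12 at 101 and 25.7, against Car1 at 27.1 and 94.9 and Car2 at 118 and 335.

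The growth factor receptor gene Igf2r read 2141 in CD25hi, 1041 in CD25lo, 680 among CD25+ Foxp3- and 843 among CD25- Foxp3- cells. Airn, the antisense RNA that overlaps it, read 155, 48.5, 38.0 and 50.5, and reads of an overlapping pair can be hard to tell apart. Abcb1a, a drug efflux pump of memory T cells, read 417, 1208, 211 and 233, and Hif1a, the oxygen-regulated transcription factor, 3695, 8184, 5752 and 1376. Tubb2a and Tubb2b, closely related tubulin genes, read 933 and 326, and 375 and 107 in the Foxp3+ pair, opposite to the mitosis genes.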
